A study of Homo sapiens with 33 samples.

Results

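H2452 is an established human pleural mesothelioma cell line, and its transcriptome was compared after prolonged exposure to palbociclib, an inhibitor of the cyclin-dependent kinases CDK4 and CDK6, and after exposure to the solvent DMSO. The 6 H2452 libraries compared here, 3 with palbociclib and 3 with DMSO, were taken by line and treatment name out of 33 libraries of 6 cell lines, and the genes tested were the 17803 with a value of 100 CP20M or more anywhere in the series. CP20M is the number of reads of a gene per 20 M (mega) reads of its library. Palbociclib was given at 1 µM and DMSO at 0.1%. Libraries with the same number came from the same experiment and formed 3 pairs, of which pairs 1 and 2 were treated for 9 days and pair 3 for 10 days. 1 further H2452 library was taken after 10 days of palbociclib and 48 hours of washout, and it has no replicate. Its label gives no experiment number, and it was set against pair 3 because that pair was also treated for 10 days. The lines set against H2452 were the other lines classed as sensitive to the drug. They were H2052 with 2 pairs, H28 with 3 pairs and MSTO-211H with 3 pairs, given the same doses and sequenced in the same way. Pair 1 of H2052 and pairs 1 and 2 of H28 and MSTO-211H were treated for 9 days, and the last pair of each line for 10 days. What limits H2452 as a model is that it is 1 line grown alone in culture, and that CDKN2A and CDKN2B, which encode the natural inhibitors of CDK4 and CDK6, were listed at 0 in all 7 of its libraries.

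CDK4 and CDK6, bound to a D-type cyclin, phosphorylate the retinoblastoma protein RB and so release the E2F transcription factors, which switch on genes for DNA replication and for entry into mitosis. An inhibitor of these kinases keeps RB active and arrests cells in G1. Cells held in this arrest for long can take on features of senescence, among them a large lysosomal compartment and the secretion of cytokines, proteases and growth factors known as the senescence-associated secretory phenotype.

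The summed level of 12 mesothelial markers ran from 51331 to 88763 CP20M with DMSO and from 39029 to 65952 CP20M with palbociclib. Most of it came from the keratins KRT7, KRT8, KRT18 and KRT19, which other epithelial cells share. Mesothelin (MSLN) was at 816 CP20M or more in every library, while LRRN4 stayed between 12 and 118 CP20M and KRT5 at or under 22 CP20M. Of the markers of other cells, CD3E and DCN were listed at 0 and the 3 fibroblast markers summed to at most 4 CP20M. The 3 endothelial markers summed to 54, 150 and 29 CP20M with DMSO and 36, 68 and 16 CP20M with palbociclib, and CD14 stood at 133, 361 and 176 CP20M with DMSO and 349, 1130 and 284 CP20M with palbociclib. Both were highest in pair 2, and their part in the results was not tested. The share of reads from mitochondrial genes was between 0.393% and 1.98%, and was highest in palbociclib library 3. Steps between the lowest values placed the depth of 5 libraries between 14.7 and 19.9 M reads. In bulk RNA, fewer cells with a transcript and less of it per cell cannot be told apart. The study describes the pairs as independent experiments, so the p-values of the change in H2452 measure the spread between experiments on 1 line. Those of the differences from the other lines rest on a spread pooled over all 4 lines, which can be smaller than that of H2452 by itself.

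Palbociclib lowered the expression of more genes than it raised in H2452 under the deposited scaling. A gene was called when it changed more than 1.5-fold with a limma adjusted p under 0.05, and 1075 genes were called up (6.04% of all tested) and 1918 called down (10.8%). The balance of the directions depended on the scaling. When the libraries were scaled by the median of ratios, 1623 genes were called up and 1259 down, so that 56.3% of the calls were rises in place of 35.9%, and with upper-quartile scaling 2027 were up and 1095 down (64.9% rises). These scalings moved the median of all genes from -0.10 to 0.02 and 0.09 on the log2 scale. Pair 2 gave the smallest change for 574 of the 1075 raised genes and for 1329 of the 1918 lowered genes. With pair 1 or pair 3 left out, no gene was called under the same filter, although 5310 and 6264 genes had an unadjusted limma p under 0.05, and with pair 2 left out 554 were called up and 1023 down. When the filter was applied to the libraries of the fit alone, a choice made after seeing the data, 829, 1200 and 774 genes were called up without pairs 1, 2 and 3, and 1567, 2130 and 1388 down.

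To find what H2452 did that the other lines did not, the change in H2452 was compared with the mean change of H2052, H28 and MSTO-211H and with each line by itself. All fold changes and differences below are on the log2(CP20M + 10) scale, which understates the change of low genes, and are given ± the standard error of the fit. The H2452 change was called above the mean of the others for 820 genes (4.61%) and below it for 890 (5.00%). 159 genes (0.893%) were above each of the 3 lines and 119 (0.668%) below each, and these are called set apart here. The same rule set apart 52 genes (0.292%) above and 155 (0.871%) below for H2052, 310 (1.74%) and 127 (0.713%) for H28, and 418 (2.35%) and 157 (0.882%) for MSTO-211H. Of the 159 genes, 130 were called up in H2452 and 29 were not called, with a median change of 1.23 in H2452 against medians of -0.13, 0.00 and -0.06 in H2052, H28 and MSTO-211H. Of the 119 genes, 96 were called down and 23 were not called, with a median of -1.45 against 0.00, -0.03 and 0.07. A gene can be set apart because the other lines hardly expressed it, and 99 of the 159 and 91 of the 119 had a mean of at least 10 CP20M in each of the other 3 lines. When only the pairs treated for 9 days were used, 12 genes were called above the mean and 18 below, and none was set apart. With pair 1 of H2452 left out and all pairs of the other lines kept, 351 genes were called above the mean and 320 below. Of these fits, this one set apart 85 genes above and 38 below. With pair 3 of H2452 left out the counts were 360, 367, 74 and 48. The counts of list members above or below the other lines depended on the pairs in the same way. In the pairs treated for 9 days no list described below kept more than 2 such members in either direction.

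**Figure D1:**
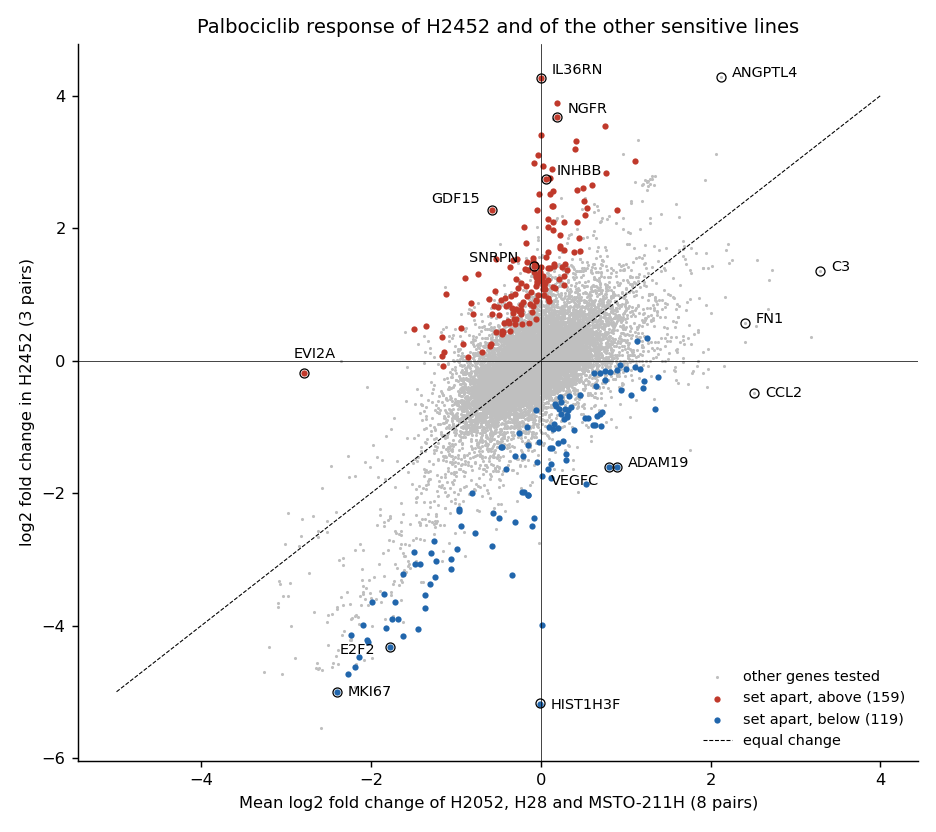
Each point is 1 of the 17803 genes tested, with the mean log2 fold change of H2052, H28 and MSTO-211H (8 pairs) on the x axis and the log2 fold change of H2452 (3 pairs) on the y axis, and the dashed line marks equal change. The 159 genes set apart above (red) crowd at little change in the other lines, whereas many of the 119 set apart below (blue) lie at the lower left, where the other lines fell too and H2452 fell further.

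The widest difference lay in the genes of the cell cycle. The medians of the genes of G1/S transition, replication, recombination and mitosis were below 0 in all 4 lines and were lowest in H2452. The promoters of 6 genes named below are shown because the genes of DNA replication and of mitosis are known to be controlled through different short sequences: E2F sites, searched here as TTTGGCGC or TTTCCCGC, and the cell cycle homology region (CHR), searched as TTTGAA, which is bound by the MuvB complex. The third sequence, TGATGNAA, is an element bound by ATF4, a factor of the amino acid stress response, to which ASNS belongs. Each line gives the 100 bases before the transcription start in RefSeq (GRCh38.p14), 5′ to 3′ on the strand of the gene, with the matches on either strand in capitals, where overlapping matches run together. The positions are chr10:128126424-128126523 on the minus strand for MKI67, chr7:36389762-36389861 on the plus strand for ANLN, chr12:53268199-53268298 on the plus strand for ESPL1, chr1:23531234-23531333 on the minus strand for E2F2, chr10:94545688-94545787 on the plus strand for HELLS and chr7:97872409-97872508 on the minus strand for ASNS.
MKI67: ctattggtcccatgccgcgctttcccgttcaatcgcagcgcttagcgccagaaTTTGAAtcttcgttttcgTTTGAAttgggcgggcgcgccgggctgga
ANLN: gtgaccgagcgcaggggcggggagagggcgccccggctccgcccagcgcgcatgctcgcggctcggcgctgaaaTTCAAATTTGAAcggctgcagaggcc
ESPL1: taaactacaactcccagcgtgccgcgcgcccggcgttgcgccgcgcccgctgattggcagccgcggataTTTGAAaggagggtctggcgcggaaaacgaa
E2F2: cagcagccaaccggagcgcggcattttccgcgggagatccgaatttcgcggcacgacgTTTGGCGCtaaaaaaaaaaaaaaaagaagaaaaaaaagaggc
HELLS: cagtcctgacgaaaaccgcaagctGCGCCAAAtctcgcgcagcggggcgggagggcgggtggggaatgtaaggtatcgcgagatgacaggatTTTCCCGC
ASNS: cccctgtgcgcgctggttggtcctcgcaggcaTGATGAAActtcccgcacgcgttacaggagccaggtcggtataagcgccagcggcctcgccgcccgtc
Within 300 bases around the start, the CHR letters occurred on either strand in 24 of the 34 promoters of mitotic regulators found in the table (70.6%), against 15.4% of all 27305 promoters of that length. The E2F letters occurred in 13 of 25 promoters of replication licensing genes (52.0%) and 8 of 18 of G1/S genes (44.4%), against 1 of 34 of mitotic regulators (2.94%) and 2.31% of all promoters. The ATF4 letters occurred in 4 of 22 promoters of the amino acid stress list (18.2%) and in 3.67% of all. A match describes the letters of a promoter and does not show that a factor was bound in these cells.

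All 40 mitotic regulators tested were called down in H2452, with a median log2 fold change of -3.61, where the medians were -2.04 in H2052, -1.85 in H28, -1.94 in MSTO-211H and -0.10 over all genes in H2452. 28 of the 40 were below the mean of the other lines, 10 were set apart below and none was above. The 28 became 11 without pair 1, 29 without pair 2, 10 without pair 3, 12 without the replicate block and 0 in the pairs treated for 9 days. MKI67, which encodes the proliferation marker Ki-67, stood at 9136, 7589 and 7680 CP20M with DMSO and at 200, 403 and 177 CP20M with palbociclib, which on the log2 scale is -5.0 ± 0.29 (limma adjusted p = 0.0123). The groups lay far apart, with pair 2 keeping the highest level under the drug. In the other lines MKI67 changed by -2.53 in H2052, -2.24 in H28 and -2.45 in MSTO-211H, and the difference of -2.60 ± 0.36 passed the test (limma adjusted p = 0.00185). BIRC5, which encodes survivin, a subunit of the chromosomal passenger complex, went from 1645, 1233 and 1663 to 36, 76 and 36 CP20M and differed from the other lines by -2.47. The kinetochore gene NDC80 differed by -2.21, the kinetochore gene SKA1 by -2.53, separase (ESPL1) by -2.22, the cytokinesis scaffold anillin (ANLN) by -2.22, the ubiquitin-conjugating enzyme UBE2C by -2.17 and the mitotic transcription factor FOXM1 by -1.66. CDK1, the kinase that drives mitosis, fell by 4.66 on the log2 scale and differed from the mean of the other lines by -2.08, a call lost without pair 1 or pair 3, without being set apart from each. KIF18B, a kinesin of the mitotic spindle, also ranked among the 10 deepest falls, at -4.65.

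The genes of the G1/S transition and of nucleotide synthesis followed the same order. Of 22 tested, 20 were called down with a median of -2.72, against -1.70, -1.45 and -0.88 in H2052, H28 and MSTO-211H, and 16 were below the mean of the others (9 without pair 1 or pair 3, 8 without the replicate block). E2F2, an activating E2F factor, stood at 366, 333 and 396 CP20M with DMSO and 8, 14 and 5 CP20M with palbociclib. Its levels did not overlap, and its change of -4.33 ± 0.22 compared with -2.69 in H2052, -2.0 in H28 and -0.64 in MSTO-211H (difference -2.55, limma adjusted p = 0.00107). Thymidine kinase (TK1) differed from the other lines by -2.37 and the chromatin remodeller HELLS by -1.94, both set apart, whereas RRM2, a subunit of ribonucleotide reductase, differed by -2.44 without being set apart. CCNE1, which encodes cyclin E1, a partner of CDK2, stood at 114, 72 and 117 CP20M with DMSO and 41, 56 and 45 CP20M with palbociclib. Its change of -0.93 was not called in H2452 (limma adjusted p = 0.0571), yet lay below the other lines, which gave -0.04 in H2052, 0.25 in H28 and 0.79 in MSTO-211H (difference -1.27 ± 0.21, limma adjusted p = 0.00415). Of the replication licensing and fork genes, 27 of 28 were called down (median -1.66, others -0.98, -1.08 and -0.51), 15 were below the others (3 without pair 1 or pair 3, 4 without the replicate block) and GINS1, a subunit of the replicative helicase, was set apart at -1.55. Homologous recombination and Fanconi genes gave 20 of 25 called down and 9 below the others (2 without pair 1, without pair 3 or without the replicate block), with BARD1, the partner of BRCA1, set apart at -1.59. TYMSOS, an antisense RNA whose gene overlaps that of thymidylate synthase, and FAM111B, a serine protease, were among the 10 genes furthest below the other lines at -2.59 and -2.43; the counts of TYMSOS are uncertain where strands could be mixed. NEURL1B, a ubiquitin ligase acting on Notch ligands, was among the deepest falls at -4.93.

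**Figure D2:**
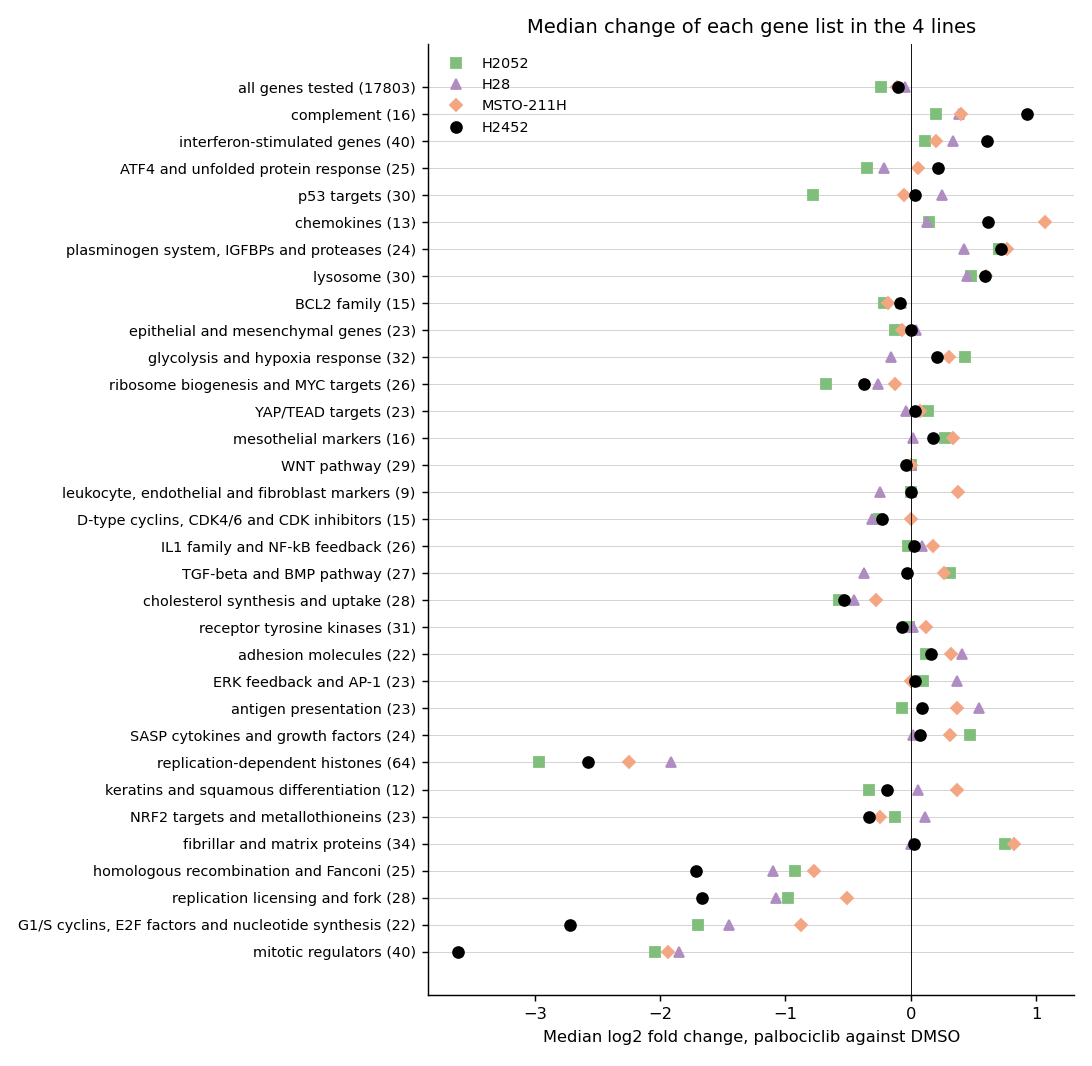
For each gene list, with the number of members tested in brackets, the x axis gives the median log2 fold change under palbociclib in H2452 (black circles), H2052 (squares), H28 (triangles) and MSTO-211H (diamonds). The H2452 medians stand apart from the other lines at the bottom, at -3.61 for mitotic regulators and -2.72 for the G1/S list, and for most other lists lie among the other lines.

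Replication-dependent histone genes, which are transcribed in S phase, had medians far below 0 in every line. 57 of 64 were called down in H2452, and the median of -2.58 lay between -2.97 in H2052 and -1.91 in H28. Their RNA carries no poly(A) tail in dividing cells and the genes are near-identical copies, so single members are uncertain. HIST1H3F stood at 1138, 1167 and 1263 CP20M with DMSO and 23, 34 and 15 CP20M with palbociclib (log2 fold change -5.18 ± 0.21, limma adjusted p = 0.0123). The other lines hardly expressed it, with group means of at most 2.0 CP20M, and the neighbouring HIST1H2BH showed the same, falling from 750, 706 and 694 to 32, 63 and 21 CP20M. HIST1H4F was also set apart, at -1.76, from lower levels. HIST1H1B gave the deepest fall of any named gene at -5.55, and HIST1H2AH, HIST1H2BO and HIST1H1D followed at -4.73, -4.70 and -4.65. The linker histone HIST1H1C fell by 1.59 in H2452 and by 2.93 in H2052, by 2.13 in H28 and by 2.37 in MSTO-211H, a difference of 0.88 ± 0.26 (limma adjusted p = 0.0461) that kept its call in 5 of 15 alternatives.

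Among the cyclins, kinases and inhibitors of the pathway itself, 2 of 15 were called up and 4 down. CCND1, which encodes cyclin D1, rose from 5066, 6303 and 5755 to 12474, 19219 and 10773 CP20M (1.27 ± 0.16, limma adjusted p = 0.0172), and the other lines gave 0.97 in H2052, 0.94 in H28 and 1.51 in MSTO-211H, so that H2452 differed from their mean by 0.13 ± 0.19. CDK6 rose from 2448, 2440 and 3145 to 4200, 4657 and 6882 CP20M, with no overlap between groups. It stood 0.77 above the other lines, which gave 0.66 in H2052, -0.43 in H28 and 0.31 in MSTO-211H. This CDK6 difference kept its call in 8 of 15 alternatives. The call was lost with any 1 pair of H2452 left out and without H28. CDKN2C, which encodes the INK4 inhibitor p18, fell by 2.98 and the other lines gave -2.24 in H2052, -2.27 in H28 and -2.48 in MSTO-211H. RBL1, which encodes the RB relative p107, was set apart below at -1.18, and CCND3, which encodes cyclin D3, differed from the mean of the other lines by -0.99, with a change of -0.37 that was not called in H2452.

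The genes that rose furthest in H2452 had varied roles. ANGPTL4, a secreted inhibitor of lipoprotein lipase, gave the largest rise, from 296, 603 and 121 to 3972, 8172 and 5640 CP20M (log2 fold change 4.29 ± 0.41, limma adjusted p = 0.0144). It was above the mean of the other lines by 2.16 but not set apart, since H2052 gave 4.18, from a DMSO mean of 15 CP20M. PAPPA2, a protease that cleaves IGF-binding proteins, stood at 18, 24 and 97 CP20M with DMSO and 324, 423 and 1092 CP20M with palbociclib. All 3 palbociclib libraries lay above all 3 with DMSO, and the difference from the other lines was 2.78 ± 0.46 (limma adjusted p = 0.00421). TGM5, a transglutaminase of the epidermis, rose from 18, 3 and 11 to 307, 220 and 328 CP20M (3.88 ± 0.17), against at most 3.0 CP20M as the mean of any other line. SULT1C2, a sulfotransferase, ATP6V0D2, a subunit of the vacuolar proton pump, and KCNK15, a potassium channel, rose by 3.66, 3.33 and 3.32 on the log2 scale. Of these, KCNK15 was set apart. SULT1C2 went from 6, 2 and 5 to 452, 22 and 381 CP20M, and ATP6V0D2 from 0, 0 and 3 to 230, 17 and 192 CP20M. Both rose least in pair 2. The rise of SULT1C2 lost its call without the replicate block, with no filter and with a pseudocount of 50.

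NGFR, which encodes the neurotrophin receptor p75, stood at 70, 68 and 97 CP20M with DMSO and 2250, 227 and 2651 CP20M with palbociclib. The palbociclib libraries of pairs 1 and 3 were high, and that of pair 2 stood far below them but above all 3 DMSO libraries. Its difference of 3.5 ± 0.67 (limma adjusted p = 0.00792) lost its call without pair 1 and without pair 3. FCAR, the receptor for IgA, rose from 2, 0 and 0 to 91, 28 and 190 CP20M, the angiopoietin-like ANGPTL7 from 40, 29 and 22 to 649, 93 and 450 CP20M and the axonal kinesin KIF1A from 14, 6 and 15 to 95, 97 and 380 CP20M, and the lowest palbociclib level was that of pair 2 in FCAR and ANGPTL7. All 3 were set apart from the other lines, by 3.14, 3.07 and 2.92. The level of KIF1A was far higher in MSTO-211H, with means of 2493 CP20M with DMSO and 2959 CP20M with palbociclib. EPGN, an EGF receptor ligand, was set apart by 2.22, at 377, 132 and 330 CP20M with DMSO and 1106, 616 and 1795 CP20M with palbociclib.

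**Figure D3:**
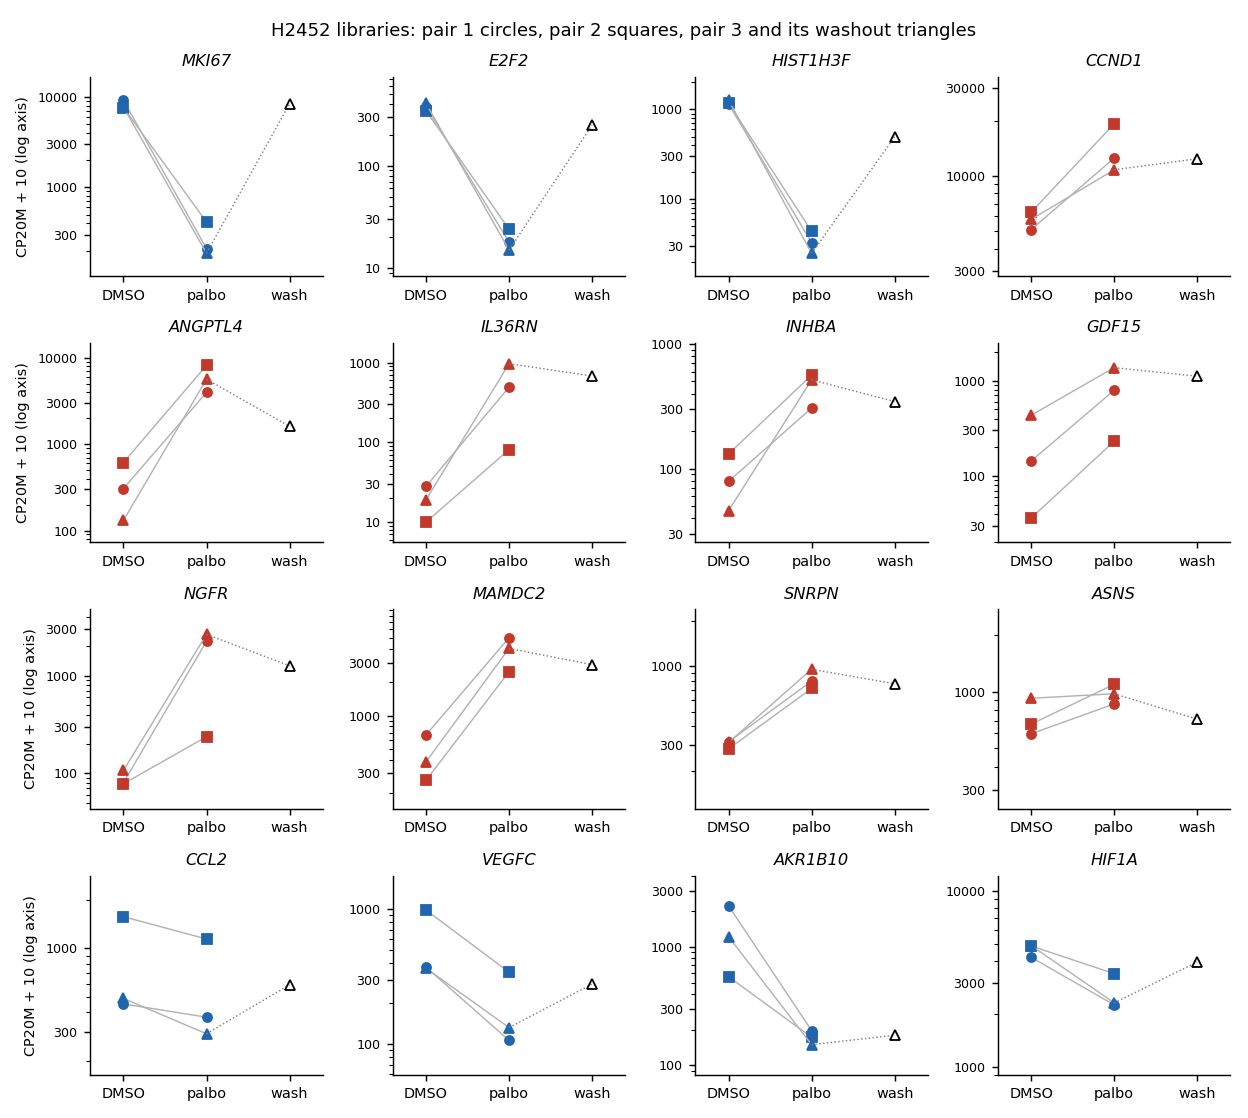
Each panel shows 1 gene in the 7 H2452 libraries, with CP20M + 10 on a log y axis. The DMSO, palbociclib (palbo) and washout (wash) libraries lie along the x axis. Grey lines join the DMSO and palbociclib libraries of a pair, and the dotted line joins palbociclib 3 to the washout library. Filled symbols are red where the gene was higher with palbociclib and blue where it was lower. CCL2 was lower with palbociclib, a change that was not called. After washout MKI67 stands at the DMSO level and E2F2 between the palbociclib and the DMSO levels, whereas IL36RN, GDF15 and SNRPN stand near the palbociclib level.

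The activins and GDF15, growth factors of the TGF-beta family, rose in H2452 further than in each of the other lines. INHBA, which encodes the activin A subunit, stood at 69, 121 and 36 CP20M with DMSO and 296, 552 and 505 CP20M with palbociclib, and no library of either group overlapped the other. Its change of 2.51 ± 0.36 compared with 0.41 in H2052, -0.62 in H28 and 0.54 in MSTO-211H, a difference of 2.4 ± 0.37 (limma adjusted p = 0.00302). INHBB, which encodes the activin B subunit, rose from 12, 14 and 2 to 80, 239 and 76 CP20M and differed by 2.69 (limma adjusted p = 0.00118). GDF15, a stress-induced cytokine and p53 target, rose from 133, 26 and 423 to 783, 221 and 1359 CP20M. It rose in each pair, from starting levels so far apart that the groups overlapped. The other lines gave -1.34 in H2052, 0.44 in H28 and -0.82 in MSTO-211H, and the difference was 2.84 ± 0.30 (limma adjusted p = 0.000444). With palbociclib the GDF15 mean in H2452 was 788 CP20M, still below the DMSO means of 1843.5 in H2052, 4990 in H28 and 4813 in MSTO-211H. The palbociclib means of these lines were 696.5, 7218 and 2712 CP20M. Of the 27 genes tested in the TGF-beta and BMP list, 4 were called up, 3 down, 4 were above the other lines and 8 below. The decoy receptor BAMBI was above at 0.92 and the inhibitor of differentiation ID2 at 1.56, whereas the related ID1 (set apart, -0.83) and the inhibitory SMAD6 (-1.30) were below.

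A pair of interleukin 36 genes rose in H2452 and was not seen in the other 3 lines. IL36RN, which encodes the antagonist of the interleukin 36 receptor, lies at chr2:113058638-113065382 in the interleukin 1 cluster (GRCh38, GENCODE 44). It stood at 18, 0 and 9 CP20M with DMSO and 481, 71 and 957 CP20M with palbociclib (log2 fold change 4.27 ± 0.56, limma adjusted p = 0.0187), and was listed at 0 in every DMSO and palbociclib library of H2052, H28 and MSTO-211H. Its neighbour IL36B (chr2:113022089-113052867), which encodes an agonist of that receptor, rose from 10, 2 and 8 to 169, 48 and 495 CP20M and was likewise listed at 0 in the other lines. For both genes the difference from the other lines is the change in H2452 itself. In both genes pair 2 gave the lowest palbociclib level. Further along the cluster, IL1A rose from 32, 26 and 21 to 124, 64 and 198 CP20M (1.82), and IL1B stood at 74, 79 and 61 CP20M with DMSO and 89, 148 and 194 CP20M with palbociclib, a change of 0.86 that was not called (limma adjusted p = 0.0895). IL36A, IL36G, IL37 and IL1F10 reached at most 8 CP20M in the 7 H2452 libraries. Over the list of the IL1 family and NF-kB feedback, 2 of 26 were called up and 1 down.

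Several other secreted and matrix genes lay below the other lines, and a few lay above them. CCL2, a monocyte chemoattractant, stood at 441, 1564 and 478 CP20M with DMSO and 363, 1133 and 284 CP20M with palbociclib, lower with the drug in each of the 3 pairs, with a change of -0.49 that was not called. In H2052, H28 and MSTO-211H it changed by 2.25, 0.91 and 4.37, from DMSO means of 67.5, 31.3 and 7.67 CP20M, all below the H2452 DMSO level. The difference of -3.0 ± 0.38 (limma adjusted p = 0.00114) kept its call in all 15 alternatives. Of 13 chemokines tested, 5 were called up in H2452, among them CXCL2 (1.28), CXCL3 (1.25), CXCL8 (0.90) and CXCL16 (1.40). 2 were above the other lines, with CXCL16, a chemokine bound to the membrane, at 1.33, and 5 below, among them CCL2, CCL5 (-1.71) and CCL20 (-1.43), the last listed at 0 in all DMSO libraries. Complement C3 rose from 5429, 14476 and 6083 to 18040, 33449 and 13313 CP20M, by 1.36, and the other lines gave 3.89, 2.33 and 3.66 from lower levels. The C3 difference of -1.94 ± 0.50 (limma adjusted p = 0.0267) was lost with any 1 pair of H2452 left out. Complement factor B (CFB) went the other way: it rose by 1.34 in H2452 and was 1.37 above the others.

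Of 34 genes of fibrillar and other matrix proteins, 7 were called up and 5 down in H2452, with a median of 0.02 against 0.76 in H2052, 0.00 in H28 and 0.82 in MSTO-211H, and 9 were below the other lines against 1 above. Without pair 1, 2 or 3 there were 2, 7 and 4 below and 0 above, and without the replicate block 1 and 0. Fibronectin (FN1) stood at 1295, 4423 and 1609 CP20M with DMSO and 1882, 4592 and 3492 CP20M with palbociclib, and changed by 0.57 ± 0.22 (limma adjusted p = 0.127) where the other lines gave 1.76 in H2052, 2.77 in H28 and 2.69 in MSTO-211H. The difference was -1.84 ± 0.27 (limma adjusted p = 0.00221), and the level of FN1 in H2452 was far under the DMSO means of 35842 and 24856 CP20M in H2052 and H28. Fibrillin 1 (FBN1) stood at 21555, 58903 and 15248 CP20M with DMSO and 15642, 49138 and 18275 CP20M with palbociclib, and differed from the other lines by -1.73 with no called change of its own. Pair 2 stood apart in this group: its levels of FN1, FBN1, COL1A2 and COL3A1 were the highest with either treatment. COL1A2 went from 4635, 20006 and 3000 to 1292, 12913 and 1436 CP20M and COL3A1 from 132, 2662 and 92 to 81, 806 and 39 CP20M, both called down (-1.17 and -1.14) and below the others (-1.27 and -1.73). The falls of COL1A2 and COL3A1 in H2452 each kept their call in 9 of 16 alternatives and were lost with median-of-ratios and upper-quartile scaling. Thrombospondin 2 (THBS2) was the gene above the other lines, at 1.17, after a rise from 2699, 4090 and 2009 to 6074, 10658 and 8472 CP20M. This difference kept its call in 5 of 15 alternatives and was lost with any 1 pair left out.

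Among factors that act on vessels and other cells, VEGFC, the lymphatic growth factor, was set apart below. It stood at 361, 974 and 354 CP20M with DMSO and 96, 330 and 122 CP20M with palbociclib and fell in each pair by a like amount (-1.60 ± 0.11, limma adjusted p = 0.0123), while the other lines gave 0.45 in H2052, 0.45 in H28 and 1.51 in MSTO-211H. The difference was -2.40 ± 0.35 (limma adjusted p = 0.00219). ADAM19, a metalloprotease that sheds membrane proteins, fell from 351, 611 and 332 to 170, 133 and 94 CP20M and differed from the others by -2.51. KITLG, the ligand of the receptor KIT, fell from 1968, 1994 and 2026 to 789, 598 and 730 CP20M, with groups wide apart, and was set apart at -1.80 ± 0.15. SDC1, which encodes the heparan sulfate proteoglycan syndecan 1, fell from 1655, 969 and 1988 to 315, 194 and 297 CP20M (-2.44 ± 0.11), where the other lines gave -0.68 in H2052, -0.57 in H28 and 0.34 in MSTO-211H, and its difference of -2.14 kept its call in all 15 alternatives. The ectonucleotidase NT5E stood at 3050, 3481 and 3920 CP20M with DMSO and 2453, 3099 and 2877 CP20M with palbociclib, a change too small to be called, against changes of 1.3, 1.02 and 1.34 in H2052, H28 and MSTO-211H (difference -1.53). VCAM1, the vascular adhesion molecule, was near 0 in pairs 1 and 3 and differed from the other lines by -2.35. Of 22 adhesion molecules, 6 were called up and 5 down; ITGB4, a laminin receptor subunit, rose by 1.12 and was 2.25 above the mean of lines that disagreed among themselves (-2.01 in H2052, 1.03 in H28 and -2.40 in MSTO-211H), while ITGB8 (-2.42) and MCAM (-1.47) were below and CADM1 (1.95) above. Of 29 WNT pathway genes 6 were called down and 1 up, and 4 were set apart below: the ligands WNT5A (-1.43), WNT5B (-1.10) and WNT7A (-0.87) and the receptor FZD4 (-1.20), of which WNT7A was expressed at no more than 22 CP20M.

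**Figure D4:**
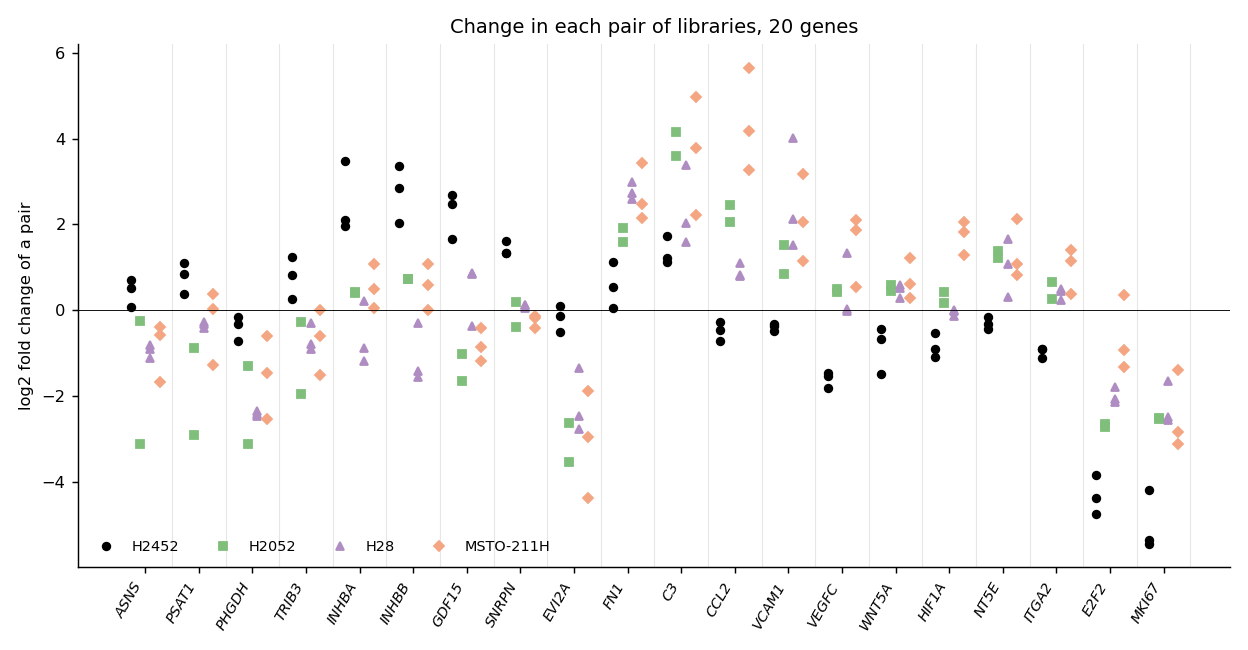
The y axis gives the log2 fold change of every pair of libraries for 20 genes named in the text, with 3 pairs of H2452 (black circles), 2 of H2052 (squares), 3 of H28 (triangles) and 3 of MSTO-211H (diamonds). The H2452 pairs lie below the 8 other pairs for CCL2, FN1, VEGFC, WNT5A and MKI67, and above them for INHBA, INHBB, GDF15 and SNRPN.

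Genes of amino acid synthesis and of the ATF4 response lay higher in the response of H2452 than in the other lines. ATF4 is the factor that turns on amino acid synthesis and transport when amino acids are short or proteins misfold. Of 25 genes tested, 6 were called up in H2452 and none down, and 8 were above the other lines and none below, while the medians were 0.22 in H2452, -0.35 in H2052, -0.21 in H28 and 0.06 in MSTO-211H. Asparagine synthetase (ASNS) stood at 587, 662 and 912 CP20M with DMSO and 850, 1084 and 965 CP20M with palbociclib, and its groups overlapped. Its change of 0.44 was not called, the other lines gave -1.69 in H2052, -0.94 in H28 and -0.88 in MSTO-211H, and the difference was 1.61 ± 0.47 (limma adjusted p = 0.0455). PSAT1 and PHGDH, enzymes of serine synthesis, differed by 1.62 and 1.65, the pseudokinase TRIB3 by 1.60, the mitochondrial folate enzyme MTHFD2 by 0.90 and the amino acid transporter SLC7A5 by 0.85. ATF4 itself stood at 4144, 3943 and 4597 CP20M with DMSO and 4374, 4538 and 4334 CP20M with palbociclib, with overlapping groups, and differed by 0.79 (limma adjusted p = 0.0446). SESN2, a stress sensor that restrains mTORC1, was the member set apart, rising from 442, 406 and 617 to 984, 922 and 1347 CP20M with little spread (1.14 ± 0.05), while the glutathione-degrading enzyme CHAC1 rose by 1.40 and missed the call against the others (limma adjusted p = 0.058). These differences were close to the threshold. The count of 8 became 0 without the replicate block and in the pairs treated for 9 days. It became 2 with pair 1, 2 or 3 of H2452 left out.

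Antioxidant genes regulated by NRF2 fell more often than they rose. Of 23 tested, 10 were called down and 1 up in H2452, and 4 were below the other lines. With median-of-ratios and upper-quartile scaling 6 and 5 were called down. The aldo-keto reductase AKR1B10 stood at 2220, 550 and 1211 CP20M with DMSO and 186, 162 and 139 CP20M with palbociclib, so that the DMSO libraries were spread widely and those with palbociclib hardly at all. Its change was -2.75 ± 0.39 (limma adjusted p = 0.0206) against -0.13 in H2052, 0.76 in H28 and -0.69 in MSTO-211H. AKR1C1 (-1.80) and AKR1C3 (-1.15), near-identical copies whose counts are uncertain, and PGD of the pentose phosphate pathway (-0.68) were below the others as well. NQO1, a quinone reductase, fell by 0.98, and its difference of -0.58 did not pass (limma adjusted p = 0.0593). AKR1B1, aldose reductase, was set apart at -1.50 although its own change of -0.78 was not called.

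HIF1A, the hypoxia-inducible factor, fell from 4184, 4857 and 4884 to 2234, 3373 and 2296 CP20M (-0.84 ± 0.13, limma adjusted p = 0.0219), with no overlap. The other lines gave 0.30 in H2052, -0.05 in H28 and 1.72 in MSTO-211H, and HIF1A was set apart below at -1.49 ± 0.16 (limma adjusted p = 0.000488). Of 32 genes of glycolysis and the hypoxia response 9 were called up and 1 down, 4 were above the other lines and 1 below. EGLN3, a hydroxylase that marks HIF proteins for degradation, rose from 172, 147 and 73 to 798, 841 and 410 CP20M and was set apart above at 1.76. Adrenomedullin (ADM) rose from 368, 224 and 316 to 1348, 1331 and 2369 CP20M and was 1.35 above the others, and carbonic anhydrase 12 (CA12) was above by 0.90.

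A few genes moved in H2452 against all 8 pairs of the other lines. Among genes set apart with every H2452 pair outside the range of the others, 11 (0.0618%) were called up in H2452 and down in all 8 pairs, and 5 (0.0281%) the reverse. SLC8A1, a sodium-calcium exchanger, stood at 109, 152 and 62 CP20M with DMSO and 204, 235 and 205 CP20M with palbociclib, against -1.24 in H2052, -0.51 in H28 and -1.59 in MSTO-211H. SPATA13, a guanine exchange factor, differed by 2.05, the neuropeptide gene NMB by 1.23 and ZNF106 by 0.98. In the reverse direction, TICAM2, an adaptor of Toll-like receptor 4, stood at 369, 361 and 318 CP20M with DMSO and 170, 204 and 146 CP20M with palbociclib, against 0.42 in H2052, 1.03 in H28 and 0.69 in MSTO-211H. The collagen receptor ITGA2 (-1.59), AGFG2 (-1.60) and BCAR3 (-1.06) also moved this way. EVI2A, a membrane protein gene within an intron of NF1, was set apart by what H2452 did not do: it stood at 983, 1056 and 982 CP20M with DMSO and 1059, 958 and 683 CP20M with palbociclib, with overlapping groups, while the other lines gave -3.09 in H2052, -2.19 in H28 and -3.08 in MSTO-211H (difference 2.60 ± 0.46, limma adjusted p = 0.00542).

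The zinc finger genes named ZNF, mostly DNA-binding repressors clustered on chromosome 19, were examined after their values were seen and are given as a description without a test. Of 515 tested, 58 were called up and 19 down in H2452, 91 (17.7%) were above the mean of the other lines and 6 below, and 31 were set apart above and none below. The 258 on chromosome 19 held most of this: 48 were called up and 3 down, 69 (26.7%) were above the other lines and 1 below, and their median was 0.16 in H2452 against -0.30 in H2052, -0.10 in H28 and -0.18 in MSTO-211H. Of the 257 elsewhere, 22 (8.56%) were above, and of the 1087 other genes of chromosome 19, 55 (5.06%). ZNF135 stood at 82, 67 and 137 CP20M with DMSO and 227, 197 and 355 CP20M with palbociclib, with no overlap, ZNF470 at 69, 67 and 64 and 142, 155 and 256 CP20M, and ZNF813 at 20, 28 and 28 and 59, 77 and 83 CP20M. ZSCAN18, a related gene without the name, was set apart at 1.58. Members of this family share sequence, so single members are uncertain.

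**Figure D5:**
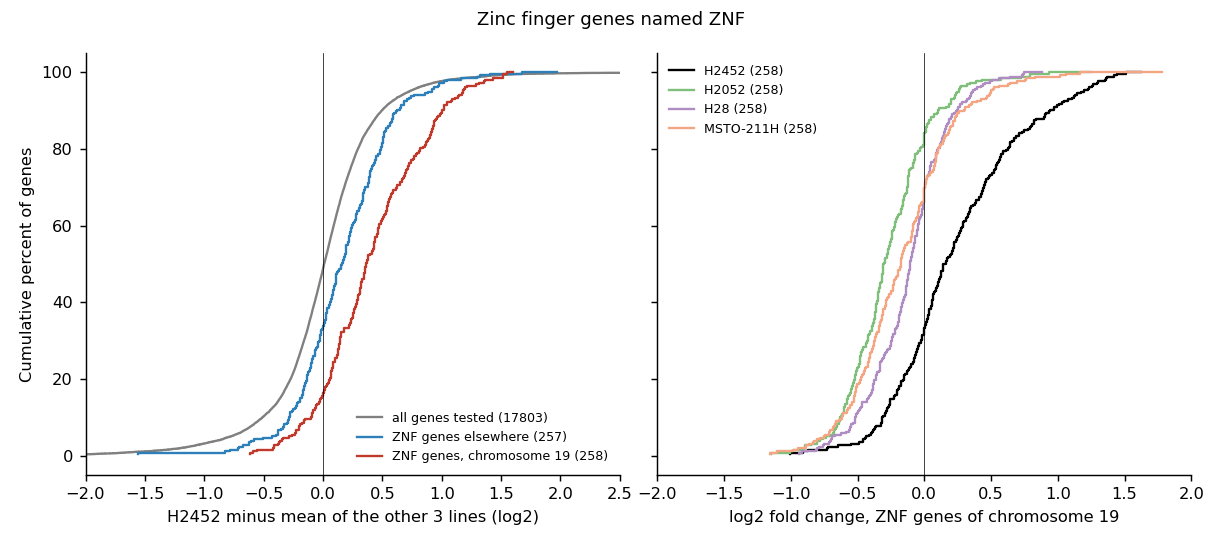
On the left, the cumulative percent of genes (y axis) is plotted against the difference of H2452 from the mean of the other 3 lines (x axis, log2) for all 17803 genes, for the 258 ZNF genes of chromosome 19 and for the 257 elsewhere; on the right, the x axis is the log2 fold change of the 258 in each line. The chromosome 19 genes lie to the right of all genes, and the H2452 curve lies to the right of the other lines, with a median of 0.16.

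Neighbouring or overlapping genes rose together at a pair of other loci, also chosen after their values were seen. In the imprinted region of 15q11, SNRPN (chr15:24823637-24978723) encodes a spliceosome protein and is expressed from the paternal allele. It stood at 304, 272 and 301 CP20M with DMSO and 787, 702 and 946 CP20M with palbociclib (log2 fold change 1.43 ± 0.09), against -0.10 in H2052, 0.10 in H28 and -0.25 in MSTO-211H. The highest SNRPN level in a DMSO or palbociclib library was 715 CP20M in H2052, 1943 CP20M in H28 and 2310 CP20M in MSTO-211H. SNURF (1.5), SNHG14 (1.12), PWAR5 (1.82) and NDN (1.28) were set apart above too, each with its difference from the other lines in brackets. SNRPN, SNURF and SNHG14 overlap and PWAR5 lies within SNHG14, so that the counts of these genes are not independent. The highest NDN level in a DMSO or palbociclib library was 437 CP20M in H2052, 0 CP20M in H28 and 5 CP20M in MSTO-211H. UBE3A, a further gene of the region, which is expressed from the maternal allele in neurons, stood at 2179, 2124 and 2234 CP20M with DMSO and 2110, 2174 and 2224 CP20M with palbociclib, with overlapping groups. PEG3, another paternally expressed gene, on chromosome 19, rose from 2, 9 and 3 to 18, 42 and 28 CP20M and was listed at 0 in the other lines. On chromosome 9, MAMDC2 (chr9:70043848-70226972), which encodes a secreted proteoglycan, rose from 659, 250 and 372 to 5038, 2484 and 4031 CP20M (3.19 ± 0.11), and the antisense genes MAMDC2-AS1 (2.76) and SMC5-AS1 (2.56) rose with it; where reads of the strands could not be kept apart, these 3 are 1 signal. The neighbouring gene SMC5 stood at 494, 523 and 476 CP20M with DMSO and 334, 426 and 297 CP20M with palbociclib. It was lower in each pair, and its change of -0.50 was under the 1.5-fold limit. The long noncoding RNA LINC01224 of chromosome 19 was among the 10 genes furthest below the other lines and fell from 119, 116 and 118 to 4, 2 and 5 CP20M (difference -2.89 ± 0.19).

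The remaining lists are given by their counts. The lysosome list, which includes the gene of the senescence marker beta-galactosidase, had 15 of 30 called up and none down, with a median of 0.59 against 0.48, 0.45 and 0.60; HEXA (0.88) and CTSK (1.23) were above the others and LIPA (-1.0) was below them. The plasminogen system, IGFBP and protease list had 10 of 24 called up and 1 down, with IGFBP3 rising from 1708, 2443 and 1310 to 13411, 14239 and 18968 CP20M and SERPINE2, a protease inhibitor, from 5381, 2120 and 5132 to 22365, 10694 and 24491 CP20M. The SERPINE2 difference of 0.79 from the others kept its call in 3 of 15 alternatives. The list of senescence-associated cytokines and growth factors had 7 of 24 called up and 2 down, with 3 above and 5 below the others. Of 30 p53 targets, 5 were called up and 3 down, and BBC3, which encodes the pro-apoptotic protein PUMA, stood at 126, 147 and 116 CP20M with DMSO and 134, 147 and 125 CP20M with palbociclib where the other lines gave -1.85 in H2052, -0.14 in H28 and -1.80 in MSTO-211H (difference 1.33). Of 40 interferon-stimulated genes, 3 were called up, IFI35, IFIT2 and STAT2, with a median of 0.61; IFI35 was set apart above at 1.07 and IFIT2 was below the other lines at -0.74. With the filter applied to the libraries of the fit, 12 were called up with all pairs and 24 without pair 2. Of 28 genes of cholesterol synthesis and uptake 13 were called down and none up (median -0.54, others -0.57, -0.45 and -0.27), and with either of the other scalings 4 were called down. Mesothelial markers gave 4 of 16 called up and 2 down: podoplanin (PDPN) rose by 1.13 and was set apart at 1.09, calretinin (CALB2) rose from 117, 43 and 92 to 669, 143 and 893 CP20M, WT1 fell by 1.20, and the keratin KRT18 fell by 0.68 while KRT8 stood at -0.52, both below the other lines. The falls of WT1 and KRT18 kept their call in 7 and 9 of 16 alternatives. Both were lost with either of the other scalings, and with any 1 pair left out under the same filter. Mesothelin (MSLN) stood at 1183, 1223 and 816 CP20M with DMSO and 1336, 1672 and 1060 CP20M with palbociclib. All 16 protocadherin alpha genes tested, a family looked at after its values were seen that shares exons and so counts as 1 signal, were called up, with a median of 2.68 against 1.41, 0.91 and 1.42.

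After 48 hours without the drug, most mitotic genes stood near their DMSO level and most histone genes stood below it. Most of the raised genes were still away from it. In this 1 library, which has no replicate check, MKI67 stood at 8328 CP20M, BIRC5 at 1937 CP20M and E2F2 at 239 CP20M. E2F2 lay below its 3 DMSO libraries. The median difference from DMSO library 3 was -0.09 for the mitotic regulators, -0.30 for the G1/S list, -0.42 for the replication list and -1.23 for the replication-dependent histones. Among these, HIST1H1B stood at 619 CP20M and HIST1H3F at 486 CP20M. Of the 1918 genes called down, 1456 (75.9%) were within 1.5-fold of DMSO library 3, and of the 1075 called up, 361 (33.6%). Of the 96 genes set apart below and called down, 75 (78.1%) were within 1.5-fold of it, and of the 130 set apart above and called up, 23 (17.7%), with a median still 1.18 above DMSO library 3 on the log2 scale. IL36RN stood at 667 CP20M, IL36B at 690 CP20M, GDF15 at 1102 CP20M, SNRPN at 755 CP20M and NGFR at 1257 CP20M. ANGPTL4 was at 1599 CP20M, below its 3 palbociclib libraries and above its 3 DMSO libraries. AKR1B10, at 169 CP20M, was a lowered gene that stayed at its palbociclib level. IL1B stood at 477 CP20M, above all 6 other libraries.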

How the data were processed

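RNA of the cell lines was sequenced from libraries that keep the strand of the transcript. The deposited values are reads per gene scaled to 20 M reads per library (CP20M), which the authors made with Trimmomatic 0.36, STAR 2.5.3 (GRCh38) and HTSeq 0.9.1 and rounded up to whole numbers, so they were treated as a score and not as counts; the strand setting of the counting is not given in the sources used here. Reads in each of the 7 H2452 libraries summed to about 20 M by this scaling, and depth was read from the numbers that the rounding skips.

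Genes with at least 100 CP20M in 1 of 33 libraries (17803 of 58302) were tested on log2(CP20M + 10) with limma 3.58.1 in R 4.3.3 (moderated test with trend, Benjamini-Hochberg adjustment), with the replicate number as a block, as in the model of treatment and pair of the study's methods. The deviations of the DMSO and palbociclib libraries of a number from their group means correlated across genes (r = 0.53, 0.67 and 0.57, other combinations -0.53 to 0.10). The response of H2452 was compared with that of the other lines in 1 fit of 22 libraries with each pair as a block. Genes were set apart when called against the mean and each line with the same sign. The alternatives were no block, pseudocounts of 1 and 50, other filters, scalings and variance models, and leaving out pairs or lines. The tests were also run on simulated data with 200 changed genes among 17622. In H2452 they recovered 75% of genes changed by 1 and 96% of those changed by 2 on the log2 scale, with 5 false calls. Against the mean of the other lines they recovered 87% and 99%, with 25 false calls. Of genes to be set apart they recovered 81% and 99%, with 5 false calls. The changed genes all had an H2452 DMSO mean of at least 200 CP20M. Every pair was given the same change, with normal noise taken from the spread of the DMSO libraries. Recovery of genes at lower levels, or with unequal changes between pairs, was not tested. Named genes were the 10 largest changes and the 10 largest differences each way, genes moving against all other pairs, and members of the lists, first those set apart. The lists and the genes were chosen with earlier results of these data known. Gene positions are from GENCODE 44 and promoters from RefSeq (GRCh38.p14), of which those of BIRC5, FOXM1 and UBE2C were not used here.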

Additional observations from a re-analysis of the deposited data

Results flagged for a closer look

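The genes below drew attention because the change in H2452 differed from the change in each of the other 3 lines in limma tests of the difference itself, 159 genes above and 119 below. The values in brackets are the differences from the mean of the other lines on the log2(CP20M + 10) scale for those named in the text.

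Above the other lines, the secreted and surface proteins were IL36RN (4.27), IL36B (3.42), NGFR (3.5), FCAR (3.14), ANGPTL7 (3.07), PAPPA2 (2.78), INHBA (2.4), INHBB (2.69), GDF15 (2.84), EPGN (2.22), MAMDC2 (2.79), NMB (1.23) and PDPN (1.09). The epidermal enzyme, channel, motor and exchanger genes were TGM5 (3.70), KCNK15 (2.91), KIF1A (2.92), SLC8A1 (2.12) and SPATA13 (2.05). The stress and hypoxia genes were SESN2 (0.86) and EGLN3 (1.76), and the interferon-stimulated gene was IFI35 (1.07). The imprinted genes were SNRPN (1.52), SNURF (1.5), SNHG14 (1.12), PWAR5 (1.82), NDN (1.28) and PEG3 (1.41). The zinc finger genes were ZNF135 (1.52), ZNF470 (1.36), ZNF813 (1.52), ZSCAN18 (1.58) and ZNF106 (0.98). The antisense genes of chromosome 9 were SMC5-AS1 (2.42) and MAMDC2-AS1 (2.66), and the membrane protein gene within NF1 was EVI2A (2.60).

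Below the other lines, the mitotic genes were MKI67 (-2.60), BIRC5 (-2.47), SKA1 (-2.53), ESPL1 (-2.22), ANLN (-2.22), NDC80 (-2.21), UBE2C (-2.17), KIF14 (-1.90), CENPF (-1.90), FOXM1 (-1.66) and KIF23 (-1.40). The genes of G1/S, replication and repair were E2F2 (-2.55), TK1 (-2.37), HELLS (-1.94), GINS1 (-1.55), BARD1 (-1.59), RBL1 (-1.18), FAM111B (-2.43) and TYMSOS (-2.59). The histone genes were HIST1H3F (-5.16), HIST1H2BH (-4.0) and HIST1H4F (-1.76). The secreted, adhesion and signalling genes were VEGFC (-2.40), ADAM19 (-2.51), SDC1 (-2.14), KITLG (-1.80), NT5E (-1.53), ITGA2 (-1.59), WNT5A (-1.43), WNT5B (-1.10), WNT7A (-0.87), FZD4 (-1.20), ID1 (-0.83), TICAM2 (-1.69), BCAR3 (-1.06) and AGFG2 (-1.60). The remaining genes were HIF1A (-1.49), AKR1B1 (-1.50) and LINC01224 (-2.89). No explanation of these differences was tested.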

How the results depend on the processing

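The replicate number was kept as a block because libraries of the same number deviated together. Without the replicate block, 649 genes were called up in place of 1075, 326 were above the mean of the other lines and 280 below it in place of 820 and 890, and 39 and 10 were set apart in place of 159 and 119. Median-of-ratios scaling gave 1623 genes up and 1259 down, and upper-quartile scaling 2027 up and 1095 down, against 1075 and 1918. With 1 pair of H2452 left out, 0 to 554 genes were called up and 0 to 1023 down (5310 to 7707 had an unadjusted limma p under 0.05). With the filter applied within the fit, 774 to 1200 were called up and 1388 to 2130 down. Over the same fits 351 to 633 genes were above the mean of the other lines and 320 to 783 below, and 74 to 147 and 38 to 144 were set apart. Pairs treated for 9 days gave 12 above and 18 below (2824 with an unadjusted limma p under 0.05), and 0 and 0 set apart. Fewer samples entered these fits, and the fit of the pairs treated for 9 days held only 1 pair of H2052. The number set apart below was 56 with no filter, 345 without H2052 and 252 without MSTO-211H, and the number above was 282 without H28, 279 without MSTO-211H and 99 with only genes measured in each other line.

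Among single genes, the change in H2452 turned positive for UBE3A with median-of-ratios scaling (0.15) and upper-quartile scaling (0.22), for FZD4 with both scalings (0.061 and 0.14), and for EVI2A (0.045) and FBN1 (0.077) with upper-quartile scaling. With 1 pair of H2452 left out, the change of UBE3A ran from -0.026 to 0.013 and that of ATF4 from -0.0035 to 0.14. The difference from the other lines ran from -0.46 to 0.18 for IL1B and from -0.038 to 0.31 for CCND1 over the same fits. It turned to 0.42 for IL1B without MSTO-211H and to -0.061 for IGFBP3 and -0.066 for CALB2 without H28. None of these changes and differences was called with all libraries. The differences from the other lines of C3, CFB, CDK6, ADM, AKR1B10, VCAM1, ID2 and COL1A2 kept their call in 8 to 11 of 15 alternatives. Those of MTHFD2 and CCL20 kept it in 6, those of ASNS, ATF4, THBS2, HIST1H1C and AKR1C1 in 5 and that of SERPINE2 in 3. The cause of these shifts was not tested. Depth bounds the low genes: 1 read was worth 1.01 to 1.36 CP20M where depth could be read.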

Other observations

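Several gene groups that belong to none of the comparisons above are given by their counts in H2452, beside 6.04% of all genes called up and 10.8% called down. Of 23 genes of antigen presentation, 5 were called up, among them the class I genes HLA-E and HLA-G, whose shared sequence makes single members uncertain, and 2 were called down, CD274, which encodes the immune checkpoint ligand PD-L1, and the immunoproteasome subunit PSMB9.

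Of 31 receptor tyrosine kinases none was called up and 5 were called down, AXL, EPHB2, EPHB4, FGFR3 and TYRO3, and IGF1R, FGFR4 and FLT4 were above the other lines. Of 23 genes of ERK feedback and AP-1, 2 were called up and 1 down, and of 23 YAP/TEAD targets 4 were called up and 2 down. Of 26 ribosome biogenesis and MYC targets, none was called up and 5 were called down, with a median log2 fold change of -0.37 against -0.68, -0.27 and -0.13 in H2052, H28 and MSTO-211H. Of 15 BCL2 family genes, 1 was called up (HRK) and 2 down (BCL2L11, which encodes BIM, and PMAIP1, which encodes NOXA), all of them promoters of apoptosis. Of 23 epithelial and mesenchymal genes, 2 were called up, E-cadherin (CDH1) and claudin 1 (CLDN1), and 1 down, TWIST2, and of 12 keratin and squamous genes 2 were called up and 2 down. Of 16 complement genes, 9 were called up and 2 down, with a median of 0.93 against 0.20, 0.39 and 0.40. Of 9 markers of leukocytes, endothelium and fibroblasts that passed the filter, CD14 was called up and none down.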
